A study of Mus musculus with 41 samples.

Results

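The genes described are the epidermal growth factor (EGF) receptor gene Egfr, its relatives Erbb2 and Erbb3, and the ligand genes Areg, Ereg and Hbegf. They were found as the probes listed for these symbols in a table of Illumina array values from mouse thymus. Where a gene had several probes, the one with the highest mean over the arrays gave its main value. Of the 6 genes, 3 had a probe (Egfr, Erbb2 and Hbegf), out of 13283 genes with a probe in the table. Erbb3, Areg and Ereg were not analysed here. The study asked how transcripts of thymic stroma change with ageing and after castration, when the thymus regrows for a time.

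All mice were male C57Bl/6. Thymic epithelial cells (TEC, sorted as CD45-EpCAM+) and other stromal cells (nonTEC, sorted as CD45-EpCAM-) came from young mice of 5 to 6 weeks without surgery and from middle-aged mice of 9 to 12 months without surgery. They also came from middle-aged mice of the same age range that were surgically castrated or sham-castrated, taken 4, 7 or 20 days later. The 8 TEC groups had 3 arrays each (24 in all). The 6 nonTEC groups also had 3 each, apart from 2 for sham at day 7 (17 in all), and nonTEC at day 20 was not analysed here. Whether replicate arrays stem from different animals is not said in the labels. The p-values therefore reflect array-to-array spread alone, which may be technical.

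The EGF receptor is a tyrosine kinase at the cell surface that pairs with itself or with a relative when a ligand binds, and then signals through the Ras-ERK and PI3K-AKT routes. Erbb2 encodes the relative that has no ligand of its own and serves as a partner, and Erbb3 encodes one with little kinase activity. The ligands are made as membrane proteins and released by proteases of the ADAM family, and in epithelia the pathway is known for growth, survival and repair.

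Values are log2 intensities as deposited, and 1 unit is a change by a factor of 2 in intensity. Their base is not stated and was taken as 2. From the quantiles of the values, each fraction was taken to have been normalized on its own, so levels set across the fractions carry that reservation. Array medians lay between 6.68 and 6.82, and the number of arrays limits the precision. Keratin transcripts were higher in TEC (Krt5 by 7.38 ± 0.31 (SE)) and Pdgfra, of fibroblasts, was lower (difference -6.20 ± 0.38), while Foxn1, Ctss and Pax9 of the TEC markers lay below 6.73 on every TEC array and Epcam was not analysed here. The 4 TEC arrays that stood apart in earlier results of these data (middle-aged array 3, castrated day 4 arrays 2 and 3 and sham day 4 array 3) are kept, and values with them left out stand beside the member results they move. Sham TEC at day 20 differed from sham TEC at days 4 and 7 in 57.8% of 8195 genes.

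The promoters of Egfr and Erbb2 are shown because these are the receptor genes whose transcripts differed between the fractions, in opposite directions. The sequences are the 250 bases before each gene's RefSeq start in build GRCm38.p6, 5′ to 3′ on the plus strand, with a GC box (GGGCGG or its complement CCGCCC) in capitals.
Egfr, chr11:16751953-16752202: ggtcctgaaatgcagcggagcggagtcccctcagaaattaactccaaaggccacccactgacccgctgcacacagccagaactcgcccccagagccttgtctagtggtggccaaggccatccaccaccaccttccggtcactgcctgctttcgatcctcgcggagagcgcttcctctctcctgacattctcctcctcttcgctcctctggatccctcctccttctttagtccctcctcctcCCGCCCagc
Erbb2, chr11:98412234-98412483: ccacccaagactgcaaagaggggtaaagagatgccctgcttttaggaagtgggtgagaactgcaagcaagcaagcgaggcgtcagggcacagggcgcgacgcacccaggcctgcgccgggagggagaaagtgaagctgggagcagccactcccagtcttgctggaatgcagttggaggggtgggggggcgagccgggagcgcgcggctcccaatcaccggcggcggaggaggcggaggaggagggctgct
The genes that follow these windows are annotated at chr11:16752203-16913907 (Egfr) and chr11:98412484-98437716 (Erbb2) in the same build. The Egfr window held 1 GC box and the Erbb2 window 0, and 32.7% of 32851 promoter windows of this length hold at least 1 on either strand. G and C made up 60.8% of the Egfr window and 66% of the Erbb2 window, against a median of 52.4% over all windows. Neither window held the AP-1 motif TGANTCA (in 6.75% of windows) or the palindromic androgen response element (in 0.00913%), searched on both strands. The matches describe these letters only.

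Within TEC, Egfr on its main probe was lowest in young mice and highest in sham mice at day 20. In unoperated mice it was higher in nonTEC than in TEC, while the sham day 20 TEC mean (10.98) lay above those of young (10.66) and castrated nonTEC (10.54 and 10.74). The young TEC arrays gave 9.30, 9.11 and 9.56, and the middle-aged arrays 10.45, 10.57 and 10.29. Sham arrays gave 9.94, 9.93 and 9.87 at day 4 and 9.94, 9.91 and 9.83 at day 7, but 10.90, 10.87 and 11.18 at day 20. Castrated arrays gave 10.04, 10.58 and 10.50 at day 4, 9.84, 9.86 and 10.05 at day 7, and 10.15, 10.12 and 10.02 at day 20. Every middle-aged array, operated or not, lay above every young array. In order of mean, sham day 20 (10.98 ± 0.17 (SD, n = 3)) stood clear of middle-aged TEC (10.44 ± 0.14). Middle-aged and castrated day 4 arrays overlapped, as did castrated day 4 and castrated day 20, and sham day 4, castrated day 7 and sham day 7 lay together with means of 9.90 to 9.91. Young TEC (9.32 ± 0.23) was apart at the bottom.

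**Figure D1:**
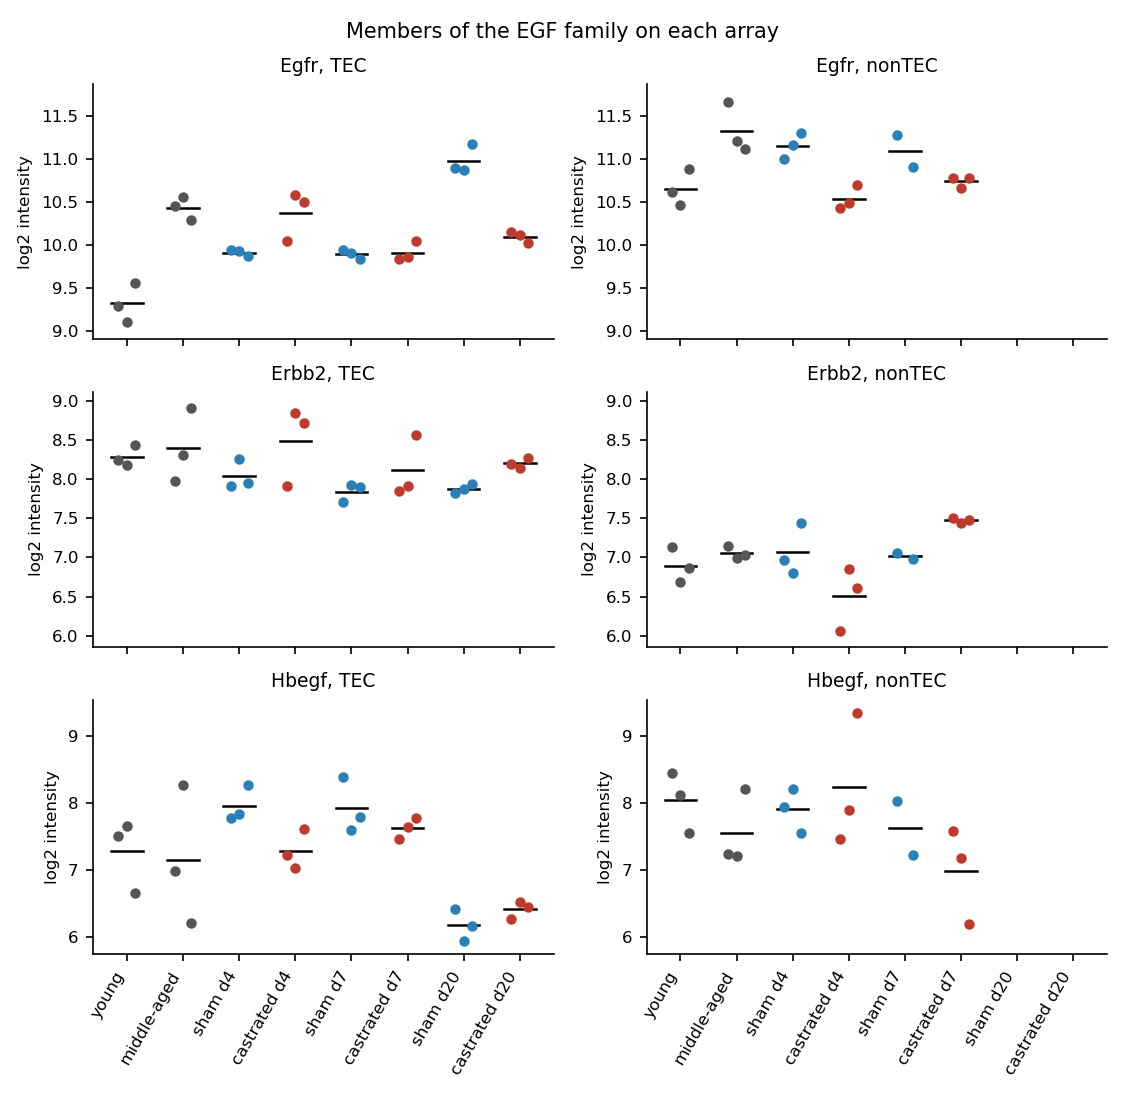
Log2 intensity of Egfr, Erbb2 and Hbegf on each array (points) with group means (bars), in TEC (left) and nonTEC (right); grey, unoperated; blue, sham; red, castrated at day (d) 4, 7 or 20. Egfr in TEC runs from 9.32 (mean, young) to 10.98 (sham day 20); no day 20 arrays are shown for nonTEC.

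In nonTEC the young arrays gave 10.62, 10.47 and 10.89 for Egfr and the middle-aged arrays 11.67, 11.21 and 11.11. Sham arrays gave 11.00, 11.17 and 11.30 at day 4 and 11.28 and 10.91 at day 7. Castrated arrays gave 10.43, 10.49 and 10.70 at day 4 and 10.78, 10.67 and 10.78 at day 7. The castrated and young arrays filled the lower range together, and the middle-aged and sham arrays the upper range, with no overlap between castrated and sham arrays of the same day. Neighbours in order of mean overlapped except sham day 7 and castrated day 7.

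On its main probe, Egfr rose with age in both fractions, while Erbb2 and Hbegf did not pass the test in either. In TEC Egfr rose by 1.12 ± 0.14 (SE; 95% interval 0.83 to 1.41), a factor of 2.17 (limma, adjusted p = 5.57e-05), so that 1 of 3 members passed the threshold of adjusted p 0.05, against 18.6% of 8195 genes. In nonTEC it rose by 0.67 ± 0.16, a factor of 1.6 (adjusted p = 0.00398), again 1 of 3 members, against 32.4% of 7762 genes. The groups did not overlap in either fraction, and the rise passed in each of the 6 fits of either fraction that left out 1 array (0.51 to 0.79 in nonTEC). When only the 6 TEC arrays were fitted, the adjusted p in TEC was 0.0815. The difference between the rises, 0.44 ± 0.21, did not pass (adjusted p = 0.174), where 11.2% of 8487 genes did. With sham arrays in place of the unoperated middle-aged arrays, Egfr was still higher than in young mice, by 0.94 ± 0.11 in TEC (adjusted p = 2.73e-05) and 0.46 ± 0.14 in nonTEC (adjusted p = 0.0198). Among the other bright Egfr probes in unoperated mice, ILMN_1241496 passed in TEC (1.05) and ILMN_3052260 in nonTEC (0.48). The rest did not pass, at 0.32 and 0.25 in TEC and 0.14 and 0.24 in nonTEC. For the difference between the rises, ILMN_1241496 passed (0.91 ± 0.29, adjusted p = 0.041 in limma over all probes). ILMN_3052260 and ILMN_3128725 did not pass there (-0.17 and 0.01).

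Other transcripts moved beside Egfr in the same comparisons. Of 14 tested immediate early genes, which respond to stimulation and to cell handling, 8 were higher in middle-aged TEC and 0 lower, and their mean level was 10.69 to 11.12 on young and 11.41 to 11.84 on middle-aged arrays. The mean over 10 fibroblast markers in TEC, 3 of them below 6.73 on every array, was 6.90 to 6.94 on young and 6.93 to 7.37 on middle-aged arrays, and 0 of 7 tested passed. Of 7 tested pericyte and smooth muscle markers 4 were lower in middle-aged TEC and 1 higher. Of 5 macrophage and granulocyte markers 3 were lower and 0 higher, while 0 of 15 TEC and 0 of 5 endothelial markers passed. Of all genes, 18.6% passed in this comparison. Of 5 pan-leukocyte markers, 3 were lower in middle-aged TEC, with mean levels of 10.32 to 11.06 against 11.40 to 11.54 in young TEC. Between the fractions of unoperated mice, 4 of 5 such markers were higher in TEC and 1 lower, where 76.7% of all genes passed. In the same comparison 6 of 6 thymocyte markers were lower in TEC. Whether the pan-leukocyte transcripts reflect leukocytes in TEC was not tested. In middle-aged nonTEC, 5 of 5 tested pan-leukocyte markers, 5 of 6 thymocyte markers, 7 of 8 TEC markers and 5 of 11 fibroblast markers were lower. The pan-leukocyte mean there, over 7 markers of which 2 were below 6.73 on every array, was 7.25 to 8.10 against 9.43 to 9.68 in young nonTEC. The fibroblast mean was 11.46 to 11.98 on middle-aged and 11.76 to 12.37 on young nonTEC arrays. Their part in the Egfr values was not tested, and in such sorted bulk RNA a change in the number of cells of a type and a change of RNA per cell cannot be told apart.

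After castration Egfr moved differently on different days in TEC. Against sham of the same day it was higher by 0.46 ± 0.14 at day 4, which did not pass (adjusted p = 0.0633), and differed by 0.02 ± 0.14 at day 7 (95% interval -0.27 to 0.31, adjusted p = 0.972). At day 20 it fell by 0.89 ± 0.14, a factor of 1.85 (adjusted p = 0.000195). At day 4, 0 of 3 members passed, against 3.82% of genes (2124 of 8195 genes had an unadjusted p under 0.05). At day 7, 0 of 3 passed, against 0.171% of genes (1077 with an unadjusted p under 0.05), and at day 20, 1 of 3 passed, against 22.2%. The 3 days differed from each other (F = 24.3, adjusted p = 0.000448), with 1 of 3 members passing against 16.9% of genes. With the mean of all Egfr probes the days did not differ past the threshold (F = 4.44, adjusted p = 0.101), nor on any of the 3 other bright probes alone. The day 4 value passed without castrated array 1 (0.63, adjusted p = 0.00695). It was 0.11 without the 4 arrays that stood apart, which leaves 1 castrated array at day 4. Averaged over the days, Egfr differed by -0.13 ± 0.08 (adjusted p = 0.269; -0.25 with the outlying arrays left out), and 0 of 3 members passed against 10.7% of genes.

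On the main probe, the size and call of the day 20 difference depended on the control. Sham TEC at day 20 was above sham at days 4 and 7 by 1.08 ± 0.12 (adjusted p = 8.07e-07). The castrated day 20 arrays were below unoperated middle-aged arrays by 0.34 ± 0.14 (adjusted p = 0.0482), and against sham pooled over the days they differed by -0.17 ± 0.11 (adjusted p = 0.252). The mean level of 10 fibroblast markers was 6.38 to 6.39 on sham day 20 arrays and 6.82 to 8.58 on sham day 4 and 7 arrays, with 4 of 7 tested lower and 1 higher. There 3 of 4 thymocyte and 3 of 5 pan-leukocyte markers were lower too, and of 14 immediate early genes 7 were higher and 2 lower. Of all 8195 genes, 57.8% passed in that comparison, so such counts are not particular to these markers. The part of these markers in the rise of Egfr in sham TEC was not tested. Castrated TEC at day 7 was below unoperated middle-aged TEC by 0.52 ± 0.14 (adjusted p = 0.0427), although it did not differ detectably from its sham. Immediate early transcripts were lower in 11 of 14 tested at day 20, with a mean level of 10.59 to 10.79 on castrated and 11.86 to 11.92 on sham arrays. Pan-leukocyte markers were higher in 4 of 5, at 11.02 to 11.26 on castrated and 10.05 to 10.38 on sham arrays. Macrophage and granulocyte markers were higher in 4 of 5 and TEC markers in 3 of 15, with 0 lower in either list. Of all genes, 22.2% passed at day 20. Whether the pan-leukocyte transcripts reflect leukocytes in TEC was not tested, nor was the part of any of these lists in the Egfr value.

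**Figure D2:**
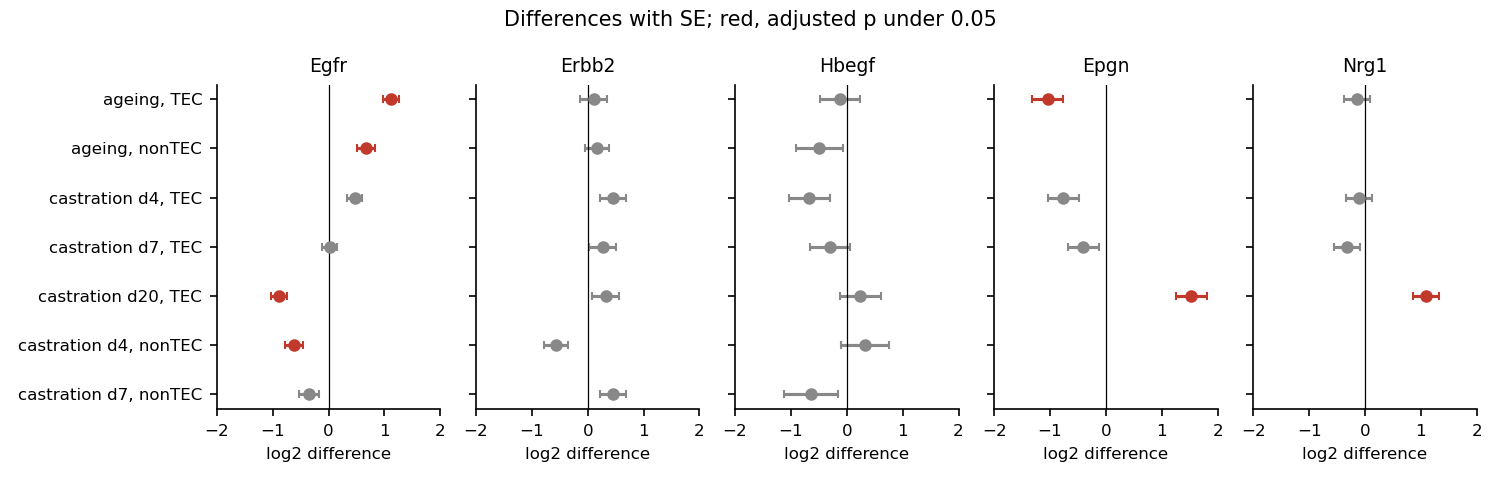
Log2 differences with SE (horizontal bars) for 5 genes of the family in ageing (middle-aged minus young) and castration (castrated minus sham of the same day); red points have adjusted p under 0.05. Egfr (main probe) is higher with age in TEC (1.12) and nonTEC (0.67). It is lower after castration at day 20 in TEC (-0.89) and day 4 in nonTEC (-0.62). Erbb2 and Hbegf have no red point.

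In nonTEC the Egfr transcript was lower after castration at day 4, by 0.62 ± 0.16, a factor of 1.53 (adjusted p = 0.0292). There 1 of 3 members passed, against 6.12% of 7762 genes. The call was lost in 4 of the 6 fits without 1 array, namely without castrated array 1 (difference -0.56, adjusted p = 0.137) or 2 (-0.59, 0.0911), or without sham array 2 (-0.61, 0.084) or 3 (-0.54, 0.147). At day 7 the difference was -0.35 ± 0.18 (adjusted p = 0.525), and 0 of 3 members passed against 0.438% of genes, with 797 at an unadjusted p under 0.05. Averaged over both days Egfr fell by 0.48 ± 0.12 (adjusted p = 0.0199), with 1 of 3 members passing against 6.39% of genes. That call, on the main probe, was lost without castrated day 4 array 1 (-0.46, 0.0534), sham day 4 array 3 (-0.45, 0.0588) or sham day 7 array 1 (-0.39, 0.154). The other bright Egfr probes passed for the average too. ILMN_1241496 gave -0.59, ILMN_3052260 -0.53 and ILMN_3128725 -0.80 (limma over all probes, adjusted p = 0.00798, 0.00754 and 0.00068). At day 7 alone these probes gave -0.16, -0.59 and -0.67 and did not pass (adjusted p = 0.855, 0.12 and 0.0857). The difference between the days in nonTEC was 0.27 ± 0.24 (adjusted p = 0.712), where 0 of 7762 genes passed in limma and 798 had an unadjusted p under 0.05.

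Markers of other cells moved in nonTEC at day 4 too. Of the tested markers 6 of 8 for TEC, 5 of 6 for thymocytes and 5 of 5 for leukocytes were higher after castration, and 1 of 11 for fibroblasts was lower. The pan-leukocyte mean was 7.79 to 9.13 on castrated and 7.09 to 7.42 on sham arrays, and the fibroblast mean 11.47 to 11.66 and 11.61 to 11.70. Their part in the Egfr value was not tested.

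The day 4 castration difference of Egfr had opposite signs in the fractions, at 0.46 in TEC and -0.62 in nonTEC. These values lay 1.08 ± 0.21 apart (adjusted p = 0.00275). Erbb2, at 0.45 in TEC and -0.57 in nonTEC, gave 1.02 ± 0.32 in the same comparison (adjusted p = 0.044). Thus 2 of 3 members passed between fractions, against 9.13% of 8487 genes, while within a fraction only Egfr in nonTEC passed at day 4. The Erbb2 value did not pass without TEC sham array 1 or 3, TEC castrated array 2 or 3, nonTEC castrated array 1 or nonTEC sham array 3 (0.79 to 0.97). Leaving out all 4 outlying TEC arrays, which leaves 1 castrated TEC array at day 4 that is assumed to vary like the others, gave 0.72 for Egfr (adjusted p = 0.177) and 0.39 for Erbb2 (adjusted p = 0.656), and neither passed. By probe, ILMN_1241496 gave 1.03 for Egfr (adjusted p = 0.0247), and ILMN_3052260 and ILMN_3128725 gave 0.61 and 0.66, which did not pass (adjusted p = 0.101 and 0.175). In TEC alone these 3 probes differed by 0.01, 0.14 and -0.27 at day 4, against 0.46 for the main probe. At day 7 the fractions differed by 0.37 ± 0.22 for Egfr (adjusted p = 0.768), with 0 of 3 members passing against 0.0236% of genes and 642 genes at an unadjusted p under 0.05.

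The Egfr probes did not all show the same changes. Egfr had 5 probes, of which ILMN_2614432 was dim, with group means of 4.51 to 5.19 in TEC and 5.79 to 6.66 in nonTEC. The main probe, ILMN_2693922, is listed for 1 RefSeq transcript, called A here, and ILMN_3052260 and ILMN_3128725 are listed for another, called B. ILMN_1241496 has no transcript listed. The mouse gene is known to give a full-length receptor and a truncated form without the kinase region, and it was not established here which form each probe reads. In ageing TEC, ILMN_1241496 rose by 1.05 ± 0.22 (adjusted p = 0.00482, over all probes), like the main probe. The probes of transcript B differed by 0.32 ± 0.20 (adjusted p = 0.287) and 0.25 ± 0.27 (adjusted p = 0.557).

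At day 20 of castration the 4 brighter probes all lay lower in TEC, at -0.89 for the main probe, -0.76 for ILMN_1241496, -0.67 for ILMN_3052260 and -0.71 for ILMN_3128725. The last did not pass (adjusted p = 0.0771). On both transcript B probes castrated day 20 had the lowest mean of the 8 TEC groups, at 7.00 (next lowest 7.67) and 7.35 (next lowest 7.84). In nonTEC at day 4 the values of the same probes were -0.62, -1.03, -0.47 and -0.93, of which -0.47 did not pass (adjusted p = 0.0596). Sham TEC at day 20 against days 4 and 7 separated the probes most plainly, with 1.08 and 1.45 for the main probe and ILMN_1241496, against -0.19 ± 0.17 and -0.17 ± 0.24 for the probes of transcript B. In ageing nonTEC the main probe (0.67) and ILMN_3052260 (0.48, adjusted p = 0.016) passed, and the other 2 did not (0.14 and 0.24).

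**Figure D3:**
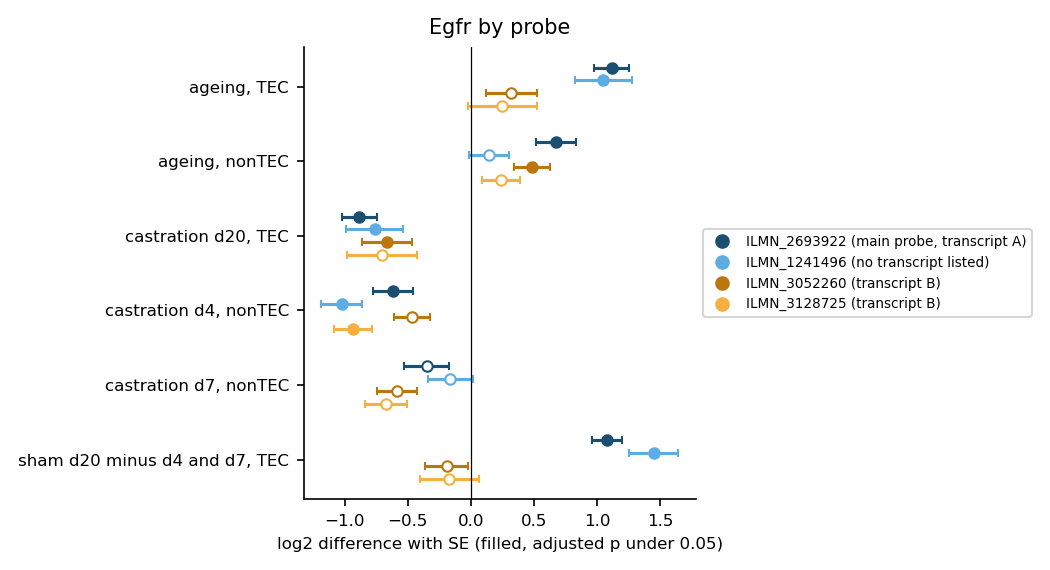
Log2 differences with SE for the 4 brighter Egfr probes in 6 comparisons; filled points have adjusted p under 0.05 over all probes, and blue and orange separate the probes not listed for transcript B from those listed for it. The transcript B probes lie near 0 where the main probe is higher in TEC (sham day 20 against days 4 and 7: -0.19 and -0.17 against 1.08).

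The gap between the main probe and the mean of the transcript B probes, taken on each array, was 1.53 ± 0.21 (SD, n = 3) in young TEC and 2.36 ± 0.50 in middle-aged TEC. The change of 0.83 had the smallest p that an exact two-sided permutation test of 3 against 3 arrays can give, 0.1. In TEC of sham mice the gap was 3.12 ± 0.23 at day 20 (n = 3) and 1.86 ± 0.18 at days 4 and 7 (n = 6), a change of 1.26 with exact p = 0.0238, again the smallest possible, and 0.143 after adjustment over the 6 gaps compared. Castrated TEC at day 20 had a gap of 2.92 ± 0.13, so that both day 20 groups were high. In nonTEC the gaps were 1.47 ± 0.32 in young and 1.78 ± 0.30 in middle-aged mice. No gap comparison passed after adjustment, and those of 3 against 3 arrays could not reach 0.05. The sham comparison, already at its smallest possible p, could not pass after adjustment over the 6 gaps either. Not passing in those comparisons therefore does not show that the gaps were equal.

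Erbb2 showed no change that passed within a fraction. TEC arrays gave 8.24, 8.18 and 8.44 in young and 7.97, 8.31 and 8.91 in middle-aged mice, and the groups overlapped. The ageing difference was 0.11 ± 0.24 in TEC (95% interval -0.39 to 0.61, adjusted p = 0.776) and 0.16 ± 0.21 in nonTEC (adjusted p = 0.577). Without middle-aged array 3, 1 of the 4 outlying arrays, it was -0.15 in TEC (adjusted p = 0.682). After castration at day 20 the TEC arrays gave 8.19, 8.14 and 8.27 against 7.82, 7.87 and 7.94 in sham, without overlap, but the difference of 0.32 ± 0.24 did not pass (adjusted p = 0.373). Castrated arrays gave 7.91, 8.85 and 8.71 at day 4 against 7.91, 8.26 and 7.95 in sham, and 7.85, 7.92 and 8.57 at day 7 against 7.71, 7.92 and 7.89. The groups overlapped on both days. At days 4 and 7 the difference was 0.45 ± 0.24 (adjusted p = 0.237) and 0.27 ± 0.24 (adjusted p = 0.679). The day 4 value passed without castrated array 1 (0.74, adjusted p = 0.0352). It was -0.17 with the 4 outlying arrays left out, which leaves 1 castrated array at day 4. The average over the days, 0.35 ± 0.14, did not pass (adjusted p = 0.105). It passed without castrated day 4 array 1 (0.45, adjusted p = 0.0253) and was 0.14 with the outlying arrays left out.

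Young nonTEC arrays gave 7.13, 6.68 and 6.86 for Erbb2 and middle-aged arrays 7.14, 7.00 and 7.03, which overlapped. In nonTEC Erbb2 gave 6.06, 6.85 and 6.61 at day 4 of castration against 6.97, 6.81 and 7.44 in sham, a difference of -0.57 ± 0.21 (adjusted p = 0.117). At day 7 the castrated arrays gave 7.50, 7.44 and 7.47 against 7.06 and 6.97 in sham, a difference of 0.46 ± 0.23 (adjusted p = 0.536). The groups did not overlap at day 7, and the castrated group had the highest Erbb2 mean of nonTEC (7.47) while castrated day 4 had the lowest (6.51). The difference between these days, 1.02 ± 0.31, did not pass (adjusted p = 0.296).

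Between the fractions of unoperated mice, Egfr was lower in TEC than in nonTEC by 1.12 ± 0.11 (adjusted p = 2.81e-11) and Erbb2 was higher in TEC by 1.37 ± 0.16 (adjusted p = 4.14e-09). Thus 2 of 3 members passed, against 76.7% of 8487 genes. The 3 other bright Egfr probes were lower in TEC as well, with differences of -1.29, -1.44 and -1.42. Since the fractions may have been normalized separately, the sizes depend on the scaling. With each array centred on its median Egfr differed by -0.77 and Erbb2 by 1.71, and over the 12 settings tried Egfr ranged from -1.33 to -0.73 and Erbb2 from 1.19 to 1.71, all past the threshold.

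Hbegf encodes heparin-binding EGF-like growth factor, a ligand of the EGF receptor that is also a quick stress-response transcript. It varied widely between arrays. Middle-aged TEC arrays gave 6.99, 8.28 and 6.22 and young TEC arrays 7.51, 7.67 and 6.66, a difference of -0.12 ± 0.36 (95% interval -0.88 to 0.64, adjusted p = 0.842). Without middle-aged array 3 it was 0.35 (adjusted p = 0.458) and without middle-aged array 2 it was -0.68 (adjusted p = 0.144). Sham TEC arrays gave 7.79, 7.85 and 8.27 at day 4 and 8.40, 7.60 and 7.79 at day 7. At day 20 they gave 6.43, 5.95 and 6.17, all below 6.73, the median of all values. Sham at day 20 differed from sham at days 4 and 7 by -1.77 ± 0.32 (adjusted p = 0.000105), and with Egfr 2 of 3 members passed, against the 57.8% of all genes given above. Castrated TEC arrays at day 20 were low too, at 6.28, 6.53 and 6.45, and differed from sham by 0.24 ± 0.36 (adjusted p = 0.71). Against sham pooled over the days the day 20 difference turned to -0.94 ± 0.30 and passed (adjusted p = 0.017).

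Castrated TEC arrays gave 7.23, 7.04 and 7.62 for Hbegf at day 4, below the sham arrays of that day, and 7.47, 7.64 and 7.78 at day 7, overlapping sham. Against sham of the same day, castration did not give a Hbegf difference that passed on any day, at -0.67 ± 0.36 at day 4 (adjusted p = 0.246, no overlap of the groups) and -0.30 ± 0.36 at day 7 (adjusted p = 0.779) in TEC. Young nonTEC arrays gave 8.45, 8.13 and 7.56 and middle-aged arrays 7.24, 7.22 and 8.22, with overlap. Sham nonTEC arrays gave 7.95, 8.22 and 7.56 at day 4 and 8.04 and 7.22 at day 7. In nonTEC castrated arrays spread over 7.48, 7.91 and 9.35 at day 4 and 7.59, 7.19 and 6.20 at day 7, overlapping sham on both days. The differences from sham were 0.33 ± 0.43 (adjusted p = 0.7) and -0.64 ± 0.48 (adjusted p = 0.729), and that of ageing was -0.49 ± 0.43 (adjusted p = 0.402). The SEs of these differences were 0.36 to 0.48, so that changes of that order were not detectable. Against nonTEC, Hbegf in TEC differed by -0.58 ± 0.30 (adjusted p = 0.0775), or by -0.24 with each array centred on its median.

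Sham mice were compared with unoperated middle-aged mice as an average over the days. The Egfr average in TEC joins opposite shifts, since all sham arrays of days 4 and 7 lay below the unoperated arrays and all of day 20 above them. Averaged over the days, sham TEC differed from unoperated middle-aged TEC by -0.17 ± 0.11 for Egfr (adjusted p = 0.333), -0.48 ± 0.20 for Erbb2 (adjusted p = 0.132) and 0.20 ± 0.30 for Hbegf (adjusted p = 0.692; -0.32 with the outlying arrays left out). In TEC 0 of 3 members passed, against 5.63% of genes, where 2179 of 8195 had an unadjusted p under 0.05. Without middle-aged TEC array 3 the Erbb2 difference was -0.22 and without middle-aged array 1 at -0.69 (adjusted p = 0.0406). In nonTEC the differences were -0.21 ± 0.14, -0.01 ± 0.19 and 0.21 ± 0.38, and 0 of 3 passed against 0.296% of genes, where 1613 of 7762 had an unadjusted p under 0.05.

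Of the other ligands and receptors of the family, Epgn and Nrg1 were bright enough in TEC to be tested. Epgn encodes epigen, a ligand of the EGF receptor, and Nrg1 encodes neuregulin 1, a ligand of ErbB3 and ErbB4. Young TEC arrays gave 9.08, 9.24 and 9.23 for Epgn and middle-aged arrays 8.16, 7.35 and 8.93, a fall of 1.04 ± 0.28 (adjusted p = 0.0146). The fall was lost without middle-aged array 2 (-0.64, adjusted p = 0.0854) or young array 2 (-1.01, adjusted p = 0.0532). At day 20 castrated TEC arrays gave 8.47, 8.20 and 8.44 and sham arrays 7.05, 6.59 and 6.89, a difference of 1.53 ± 0.28 (adjusted p = 0.000591). Epgn was thus higher where Egfr was lower in both comparisons, and the 2 genes correlated at r = -0.829 over the 24 TEC arrays, which share their normalization and groups.

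Nrg1 in TEC differed by -0.14 ± 0.23 with age, which did not pass (adjusted p = 0.715). At day 20 it gave 8.27, 8.23 and 8.29 in castrated and 7.21, 7.30 and 6.98 in sham mice, a difference of 1.10 ± 0.23 (adjusted p = 0.00205). Of the 2 tested genes of this group, 1 fell with age in TEC, where 18.6% of all genes passed. At day 20, where 22.2% of all genes passed, 2 were higher. For both ligands the sham group at day 20 was the low one. It differed from sham at days 4 and 7 by -1.67 ± 0.24 for Epgn and -1.13 ± 0.20 for Nrg1 (adjusted p = 1.06e-05 and 0.000108). Castrated day 20 TEC differed from unoperated middle-aged TEC by 0.22 (Epgn, adjusted p = 0.52) and 0.13 (Nrg1, adjusted p = 0.672). In nonTEC Epgn stayed between 4.47 and 5.38 on every array, as dim as the ligands not tested, against 7.35 to 9.24 in unoperated TEC. No size of that difference is given, since a dim level is only a bound. Egf and Btc were below the level tested in both fractions, with group means of 4.43 to 5.43 for Egf and 5.02 to 6.25 for Btc, and Nrg4 was so in TEC (4.73 to 6.36 over its 2 probes). Erbb4, Tgfa, Nrg2 and Nrg3 were not analysed here, nor were Nrg1 and Nrg4 in nonTEC.

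**Figure D4:**
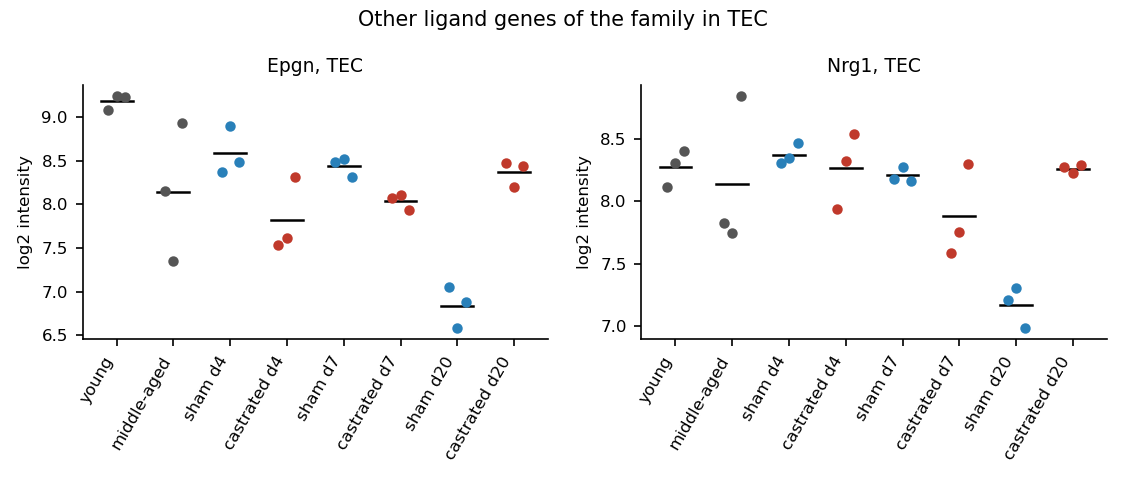
Log2 intensity of Epgn and Nrg1 on each TEC array (points) with group means (bars); grey, unoperated; blue, sham; red, castrated at day (d) 4, 7 or 20. Sham day 20 is the lowest group for both, at 6.84 for Epgn and 7.16 for Nrg1.

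Around the receptor, 87 further genes of the pathway were listed, of which 39 could be tested in TEC and 43 in nonTEC. In ageing TEC 9 of 39 passed, 8 higher and 1 lower (23.1%, against 18.6% of all genes). The median difference was 0.14 over the listed genes and 0.01 over all genes. Higher were 2 of 6 tested receptor adaptors, 1 of 7 genes of receptor inhibition and turnover and 2 of 6 ERK feedback genes. Higher too were 1 of 5 in the PI3K-AKT arm, 1 of 5 in ligand shedding and 1 of 5 ERK-responsive transcripts. Of the Ras-ERK kinases 0 of 3 were higher. The adaptors Gab1 and Shc1, which link the receptor to PI3K and Ras, rose by 0.89 ± 0.15 (adjusted p = 0.000852) and 0.45 ± 0.12 (adjusted p = 0.0137). Errfi1, an inhibitor that binds the receptor kinase, rose by 1.17 ± 0.20 (adjusted p = 0.000801). Dusp6, a phosphatase that turns off ERK, rose by 0.95 ± 0.17 (adjusted p = 0.00108) and Dusp5 by 1.14 ± 0.38 (adjusted p = 0.0402).

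Ier3, an early response gene induced by ERK, rose by 1.15 ± 0.19 (adjusted p = 0.000671), Pik3r1, a regulatory subunit of PI3K, by 1.03 ± 0.31 (adjusted p = 0.0276) and the ADAM family gene Adam15 by 0.89 ± 0.27 (adjusted p = 0.029). Errfi1, Dusp6, Ier3 and Gab1 passed in 6 of 6 fits without 1 array, against 1 of 6 for Dusp5 and Adam15, 2 of 6 for Pik3r1 and 5 of 6 for Shc1 (lost without young array 2, at 0.37). The count was 4 without young array 2, 18 without middle-aged array 3 and 21 with the 4 outlying arrays left out. When only the 6 arrays compared were fitted it was 0.

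At day 20 of castration 14 of the 39 passed in TEC, 4 higher and 10 lower (35.9%, against 22.2% of all genes). The median difference was -0.24 over the listed genes and -0.04 over all genes. Errfi1 fell by 1.56 ± 0.20 (adjusted p = 3.31e-05), Ier3 by 1.37 ± 0.19 (adjusted p = 7.07e-05) and Dusp6 by 1.26 ± 0.17 (adjusted p = 5.35e-05). Pik3r1 fell by 1.48 ± 0.31, Adam15 by 0.94 ± 0.27, Gab1 by 0.89 ± 0.15 and Shc1 by 0.38 ± 0.12 (adjusted p of 0.00187, 0.0168, 0.000406 and 0.0245). Lrig3, listed under receptor inhibition and turnover, fell by 0.82 ± 0.17 (adjusted p = 0.00147). The ERK pathway inhibitor Spred1 fell by 0.83 ± 0.20 and cyclin D1 (Ccnd1) by 0.46 ± 0.13 (adjusted p of 0.00605 and 0.0143). Adam15 and Shc1 passed in 2 of 6 fits without 1 array and Ccnd1 in 4 of 6. The higher genes were Epgn, Nrg1, Dusp4 and Vgf. Against unoperated middle-aged TEC, Errfi1, Dusp6 and Ier3 were still lower (-1.35, -1.60 and -2.16, with adjusted p from 2.29e-07 to 2.45e-05). Gab1, Lrig3 and Spred1 did not pass there (-0.23, -0.06 and -0.14, with adjusted p of 0.213, 0.78 and 0.592).

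The ageing and day 20 comparisons share no array. Of the 8 listed genes higher in ageing TEC, 7 were lower at day 20 (87.5% of the 8 and 70% of the 10 lower at day 20). Over all genes 441 of 974 did so (45.3%, and 58% of the 761 lower at day 20). The 7 were Adam15, Dusp6, Errfi1, Gab1, Ier3, Pik3r1 and Shc1. Some listed genes are themselves early response genes, and the immediate early markers given above moved the same way in both comparisons. Their part was not tested.

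**Figure D5:**
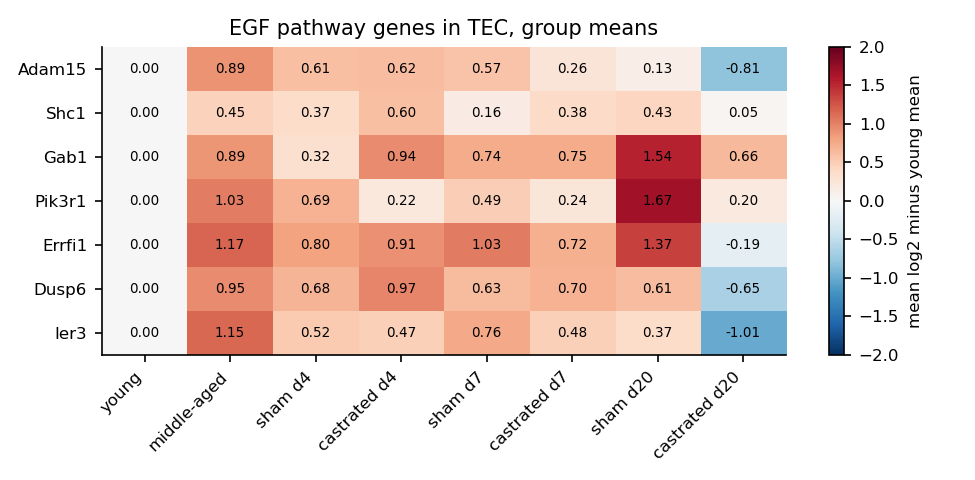
Group mean of log2 intensity minus the young mean in TEC for the 7 listed pathway genes that were higher with age and lower at day 20 of castration (rows, chosen by those calls) in the 8 TEC groups (columns; d, day after surgery). The castrated day 20 column is below young for Errfi1 (-0.19), Dusp6 (-0.65), Ier3 (-1.01) and Adam15 (-0.81).

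In ageing nonTEC 17 of 43 listed genes passed, 12 higher and 5 lower (39.5%, against 32.4% of all genes). Of 8 tested genes of receptor inhibition and turnover 3 were higher and 0 lower. Among them Lrig3 was up by 0.89 ± 0.15 (adjusted p = 0.000354) and Errfi1 by 0.75 ± 0.16 (adjusted p = 0.00195). Ier3 rose by 0.98 ± 0.18 (adjusted p = 0.000672) and Timp3, an inhibitor of ADAM proteases, by 0.91 ± 0.13 (adjusted p = 8.56e-05). Ptpn11, the phosphatase SHP2 that aids Ras signalling, rose by 0.58 ± 0.16 (adjusted p = 0.0103). Ccnd1 fell by 0.66 ± 0.13 (adjusted p = 0.00127) and Dusp5 by 0.52 ± 0.17 (adjusted p = 0.0238). Dusp5 passed in 2 of 6 fits without 1 array, being lost without middle-aged array 1 (-0.46) or any young array (-0.49 to -0.55). Without young array 1 the count was 11 and without young array 3 it was 9.

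At day 4 of castration in nonTEC 4 of 43 passed, all lower (9.3%, against 6.12% of all genes). They were Pik3r2 (-0.74 ± 0.17), Mtor (-0.68 ± 0.18), Timp3 (-0.54 ± 0.13) and Adam15 (-0.47 ± 0.12), with adjusted p of 0.0162 to 0.0353. They passed in 4, 1, 4 and 1 of 6 fits without 1 array. At day 7 in nonTEC 1 of 43 passed, Ccnd1 (0.81 ± 0.15, adjusted p = 0.0167), and that call was lost in each of the 5 fits without 1 array. In castrated TEC 1 of 39 passed at day 4, Gab1 (0.62 ± 0.15, adjusted p = 0.0349), and it passed in 2 of 6 fits without 1 array. Without the 4 arrays that stood apart, which leaves 1 castrated array at day 4, Gab1 differed by 0.33. At day 7 in TEC 0 of 39 passed in limma, and 3 had an unadjusted p under 0.05.

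Between the fractions 40 of 45 listed genes passed, 4 higher and 36 lower in TEC (88.9%, against 76.7% of all genes). The median difference was -1.12 over the listed genes and -0.26 over all genes. The largest by p were Spred1 (-2.75 ± 0.13), Adam9 (-3.81 ± 0.23) and Socs5 (-2.68 ± 0.16) among the lower ones. Epgn, Dusp4 (2.82 ± 0.22), Dusp5 and Pik3cb (1.17 ± 0.16), a catalytic subunit of PI3K, were the 4 higher ones. Araf (-0.29 ± 0.11) turned to 0.06 with each array centred on its median and to 0.10 after quantile normalization over both fractions.

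The genes whose pattern was most like that of Egfr over the 24 TEC arrays, out of 8013, were Rcan3 (r = 0.948), Maml2 (0.946) and Adam28 (0.938), and over the 17 nonTEC arrays, out of 7613, Insr (0.932), Npy1r (0.922) and Arhgef11 (0.915). For Erbb2 they were Oxsr1 (0.828), Dvl1 (0.827) and Ccdc61 (0.823) in TEC and Kdm2b (0.874), Papolg (0.873) and Vps11 (0.864) in nonTEC. For Hbegf they were Crcp (0.84), Ddit3 (0.839) and Med19 (0.837) in TEC and Upp1 (0.898), Noct (0.859) and Il6 (0.853) in nonTEC. The members themselves were less alike, at r = 0.0337 for Egfr with Erbb2 and -0.471 for Egfr with Hbegf in TEC. These correlations describe arrays that share groups and normalization.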

How the data were processed

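RNA of sorted TEC (24 arrays) and nonTEC (17 arrays) was labelled with biotin and measured on Illumina arrays, per the labels' protocols. The deposited values are normalized log2 intensities, with the base taken as 2 from their range. Per the submitters' processing notes limma was used, its version and role not being stated. Background correction and detection filters are not given. Of 24671 probes, the 20825 with 1 listed gene were used as deposited. The probe with the highest mean over all arrays stood for its gene, which was tested where a group mean exceeded 6.73, the median of all values.

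Group means were fitted with limma 3.58.1 (R 4.3.3, empirical Bayes with a trend) over all arrays of a fraction, or over all 41 arrays between fractions. All 18 comparisons were adjusted by Benjamini-Hochberg over all genes tested, with a threshold of 0.05. Castrated groups were compared with sham of the same day. Tested on simulated data, the ageing fit in TEC recovered 63% of log2 changes of 1.

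The members, gene lists and tests were chosen with earlier results of these data known. Named genes were the members, the other family genes, the 2 listed genes of smallest p per list and comparison among those passing, genes filling a count given in full (chosen after their values were seen), and the 3 genes most like each member. Replicate numbers were not treated as pairs in the main fits. Promoters came from RefSeq (GRCm38.p6; 2 of 3 measured members are shown). Alternatives covered filters, scaling, probes, weights, controls, blocks and arrays left out. Figures were drawn with matplotlib 3.10.9.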

Additional observations from a re-analysis of the deposited data

Results flagged for a closer look

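The castration difference of Egfr in TEC differed between the 3 days, by a test of the days together (F = 24.3, adjusted p = 0.000448). With the mean of all probes of the gene F was 4.44 (adjusted p = 0.101), and with the other bright probes one at a time F was 4.85, 4.06 and 0.67 (adjusted p = 0.093, 0.131 and 0.68).

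The day 4 castration difference of Egfr differed between TEC and nonTEC by 1.08 ± 0.21 (adjusted p = 0.00275), and that of Erbb2 by 1.02 ± 0.32 (adjusted p = 0.044). For Egfr the difference was 0.46 in TEC and -0.62 in nonTEC, and for Erbb2 it was 0.45 and -0.57. The Erbb2 value passed in 6 of 12 fits without 1 array. On the transcript B probes the Egfr difference between fractions was 0.61 and 0.66 and did not pass (adjusted p = 0.101 and 0.175), and with the 4 outlying TEC arrays left out neither gene passed.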

How the results depend on the processing

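Of 1170 values of the 3 members under other settings or with arrays left out, 1089 kept their call and, where called, their direction, 21 fell short of the threshold, 15 newly passed, 43 moved without a call and 2 reversed. Among the 1170, 42 values that were not called changed sign. A value counted as reversed if its sign changed and either the main or the other value was called. Reversed were Egfr at day 7 in castrated TEC with the unoperated control (-0.52) and Hbegf at day 20 with pooled sham (-0.94, adjusted p = 0.017). Araf between fractions was so too (0.059 centred, 0.10 quantile). By an alternative chosen after seeing the data, the transcript B probes of Egfr in sham at day 20 changed sign. They lay near 0 and did not pass (-0.19 and -0.17, adjusted p = 0.356 and 0.562 in limma). Of 1056 values of other named genes, 915 kept both, 139 fell short and 2 (Araf) reversed.

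Members passing numbered 2 at day 4 between fractions, against 1 with centring, quantile normalization or only the arrays compared, and 0 without the 4 arrays that stood apart. For days in TEC 0 passed with the mean of probes, and for ageing TEC 0 with only the arrays compared. At day 4 in castrated TEC 2 passed with array weights and 1 in the fit over all arrays; at day 20, 2 with array weights or only the arrays compared. Array weights gave 1 for the castration average in TEC and for ageing between fractions. The unoperated control gave 1 at day 7 in TEC and in nonTEC. Without 1 array, counts ranged from 0 to 2 at day 4 in castrated TEC, from 1 to 2 between fractions at day 4, from 2 to 3 for TEC against nonTEC, and from 0 to 1 for the averages in TEC and nonTEC, nonTEC at day 4 and sham TEC.

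Listed pathway genes passing in ageing TEC were 19 with array weights, 21 without the 4 arrays, 0 with only the arrays compared and 15 with sham arrays, and 4 to 18 without 1 array. At day 20 they were 23 with array weights and 24 with only the arrays compared, and 10 to 13 without 1 array. In ageing nonTEC they were 6 with only the arrays compared, 10 in the fit over all arrays and 9 to 17 without 1 array. The cause of these shifts was not tested.

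With the replicate number as a block Egfr rose by 1.12 with age in TEC, and of the named values only Pik3r1 in ageing nonTEC changed its call (adjusted p = 0.0554). With group means removed, same-number pairs correlated at 0.07 on average in TEC, against -0.04 for other pairs, and at -0.005 against 0.003 in nonTEC. Over 0.1 lay 35 of 84 same-number pairs in TEC and 8 of 40 in nonTEC. These values do not settle whether the numbers pair the arrays. Hbegf in TEC at day 20 is limited by its dim signal, with group means of 6.18 (sham) and 6.42 (castrated), below the median of all values, 6.73.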
